A study of Homo sapiens with 3 samples.

Results

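The cells described here are repopulated (R) cells that carried many counts of their antibody hashtag, tag7. They belong to HCT116, a colorectal cancer line with intact p53, and were measured in 1 droplet library, Mix2, made with the 3' chemistry of 10x Genomics. The library pooled irradiated cells (IR, 8 Gy, tag8), repopulated cells that had regrown after 8 Gy (R, tag7) and cells that received 0 Gy (NC, tag6), with 10000, 1000 and 1000 cells loaded. R and NC each came from a single sample of 1 cell line, so the groups compared are cells of 1 library and not replicates. No difference could be checked against replicates or given a test. Cells were kept at 200 or more detected genes and under 10% mitochondrial transcripts, and were placed in R when tag7 supplied 80% or more of their counts of the 3 tags. Of 633 R cells, 156 (24.6%) had 1951 or more tag7 counts and are called R high, and the other 477 had 104 to 1950 counts and are called R lower. The 156 cells were 1.34% of the 11652 cells kept in the library. As a control, 817 NC cells were split in the same way by tag6 into 193 cells with 2343 or more counts (NC high) and 617 cells with 374 to 2342 counts (NC lower).

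An antibody hashtag is a DNA barcode on an antibody that binds a surface protein found on nearly every cell, here ATP1B3 (CD298) and the MHC class I light chain B2M, and it records which sample a cell came from. The tag count of a cell therefore depends on its surface and its staining as well as on how deeply the droplet was sequenced. CDKN1A encodes p21, the inhibitor of cyclin-dependent kinases through which p53 holds damaged cells in arrest. GDF15 encodes a secreted stress cytokine that p53 and other stress regulators induce. Both are commonly raised after ionizing radiation.

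R high and R lower cells differed in depth as well as in tag. Cells of R high had a median of 9079 UMIs (unique transcript counts) and 2831 genes, against 6540 UMIs and 2252 genes in R lower, a ratio of median UMIs of 1.39. NC high and NC lower had medians of 8888 and 6710 UMIs, a ratio of 1.32, so depth went with the tag count in both populations. Median mitochondrial shares were 7.07% in R high and 7.25% in R lower, and 5.79% in NC high and 6.04% in NC lower. The median counts of the own tag were 2457.5 in R high against 1141 in R lower, and 2917 in NC high against 1406 in NC lower. Median tag8 counts, the tag of the irradiated cells, were 171 and 113 in R high and R lower, 167 and 111 in NC high and NC lower, 116 in droplets without cells and 1493 in IR cells. A tag8 count at or over 264, the 5th percentile of IR cells, was found in 20 R high and 6 R lower cells and in 30 NC high and 25 NC lower cells. The rule on the share of the own tag admits such a count only where the own tag is itself high. Cells of the lower groups with few own-tag counts could not reach it. The counts therefore cannot show whether high groups carried more of the irradiated cells' tag. Mix1, a library that was not used here, shared 59 cell barcodes with Mix2.

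CDKN1A and GDF15 were the genes of at least 50 CPM with the highest ratios in R high cells, and their ratios were smaller across the same split of NC cells. Both genes were singled out with that known, so their levels in R are a description. To compare groups, UMIs were summed over cells and scaled to 1000000 per group (CPM). Brackets hold exact 95% intervals of the counts alone, and cells vary by more than that. CDKN1A (ENSG00000124762, on chromosome 6 of GRCh38 from 36676460 to 36687337, plus strand) had 386 CPM in R high (612 UMIs) and 189 CPM in R lower (595 UMIs), a ratio of 2.04 (1.82 to 2.29). In the NC control it stood at 200.3 CPM in NC high and 172 CPM in NC lower, a ratio of 1.17 (1.03 to 1.32). The ratio in R was thus 1.75 times that in NC (1.48 to 2.07). R lower cells differed little from NC cells in this gene, with 1.10 times the level of NC lower (0.987 to 1.23), whereas R high cells had 1.93 times the level of NC high (1.69 to 2.20).

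GDF15 (ENSG00000130513, on chromosome 19 from 18374731 to 18389176, plus strand) stood at 469 CPM in R high (744 UMIs) and 262 CPM in R lower (824 UMIs), a ratio of 1.79 (1.62 to 1.98). NC high and NC lower had 351 and 299.5 CPM, a ratio of 1.17 (1.06 to 1.29), and the quotient of the ratios was 1.53 (1.33 to 1.75). Unlike CDKN1A, GDF15 was lower in R lower than in NC lower, 0.874 times (0.800 to 0.955), and higher in R high than in NC high, 1.34 times (1.202 to 1.49). The levels in R high were below those of IR cells, which had 503 CPM of CDKN1A and 634 CPM of GDF15. Among the 2741 such genes they ranked 1 and 2 in R. In NC they ranked 229 and 212 of 2832 genes. Free RNA was itself rich in both genes, with 723 CPM of CDKN1A and 1069 CPM of GDF15 in droplets without cells. With that profile subtracted from every cell the R ratios were 2.40 and 2.11, and the NC ratios rose as well, to 1.28 and 1.26. The same amount was taken from every cell, which weighs more on the shallower cells of the lower groups.

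**Figure D1:**
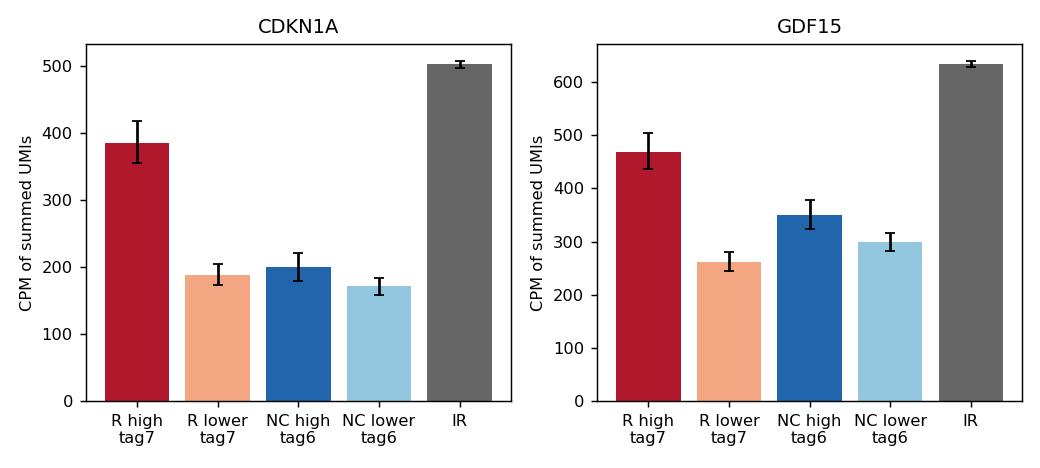
Levels of CDKN1A (left) and GDF15 (right) in CPM of summed UMIs (y axis, from 0) in R high, R lower, NC high, NC lower and IR cells (x axis). Bars are the summed level and lines its exact 95% Poisson interval; R high, at 386 and 469 CPM, lies above R lower and both NC groups and below IR.

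The 250 bases before the RefSeq start of both genes are shown because these genes moved together in R high cells. Capitals mark matches on either strand to the TATA box, searched as TATAAA, the GC box, searched as GGGCGG, and the CAAT box, searched as CCAAT.
CDKN1A, GRCh38.p14 chr6:36678464-36678713, plus strand: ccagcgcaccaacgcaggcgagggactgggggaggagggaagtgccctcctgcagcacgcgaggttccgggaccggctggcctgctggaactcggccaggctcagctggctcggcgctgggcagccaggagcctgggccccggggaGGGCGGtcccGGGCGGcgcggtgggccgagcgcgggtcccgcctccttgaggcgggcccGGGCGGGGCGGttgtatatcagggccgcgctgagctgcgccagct
GDF15, GRCh38.p14 chr19:18385908-18386157, plus strand: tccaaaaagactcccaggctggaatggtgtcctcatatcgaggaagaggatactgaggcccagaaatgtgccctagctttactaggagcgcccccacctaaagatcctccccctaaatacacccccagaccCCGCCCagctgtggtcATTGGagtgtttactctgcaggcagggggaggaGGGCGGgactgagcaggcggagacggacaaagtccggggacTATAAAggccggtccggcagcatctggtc
The CDKN1A window held 4 GC boxes, of which the last pair shares 1 base, and no match to TATAAA or CCAAT. The GDF15 window held 2 GC boxes, 1 CAAT box and 1 TATA box that starts 29 bases before the start site. Over 35116 RefSeq windows of the same length, 42.6% held a GC box, 32.0% a CAAT box and 10.7% a TATA box. The p53 half-site consensus was found in 5.57% of windows and in neither of these. Such matches describe letters and not binding.

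The excess was largest at the top of the tag7 range. R cells were cut into 5 bins of equal cell number by tag7. CDKN1A stood at 171, 222, 171, 253 and 378 CPM from the lowest to the highest bin, and GDF15 at 252, 262, 291, 270.2 and 488 CPM. The highest bin (2110 to 8501 tag7 counts) had intervals above all others, 378 CPM (346 to 412) for CDKN1A and 488 CPM (451 to 527) for GDF15. Below it CDKN1A had no steady order, and the interval of the fourth bin (223 to 286 CPM) overlapped that of the second (191 to 257 CPM). In 5 such bins of tag6, NC cells had 168, 159, 191, 161 and 209.6 CPM of CDKN1A and 303, 271, 356, 276 and 353 CPM of GDF15. NC cells of the highest tag6 bin thus had the highest CDKN1A of the NC bins, at a level between the bins of R. The 50 R cells just above the limit had 327 CPM of CDKN1A (276 to 386) and 359.5 CPM of GDF15 (305 to 421), and the 50 just below it had 223 CPM (179 to 273) and 264 CPM (217 to 319). When the high group was narrowed to the upper 10% of tag counts, the CDKN1A ratio was 2.25 (1.98 to 2.54) in R and 1.51 (1.29 to 1.75) in NC, so the NC control was not level at its extreme.

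**Figure D2:**
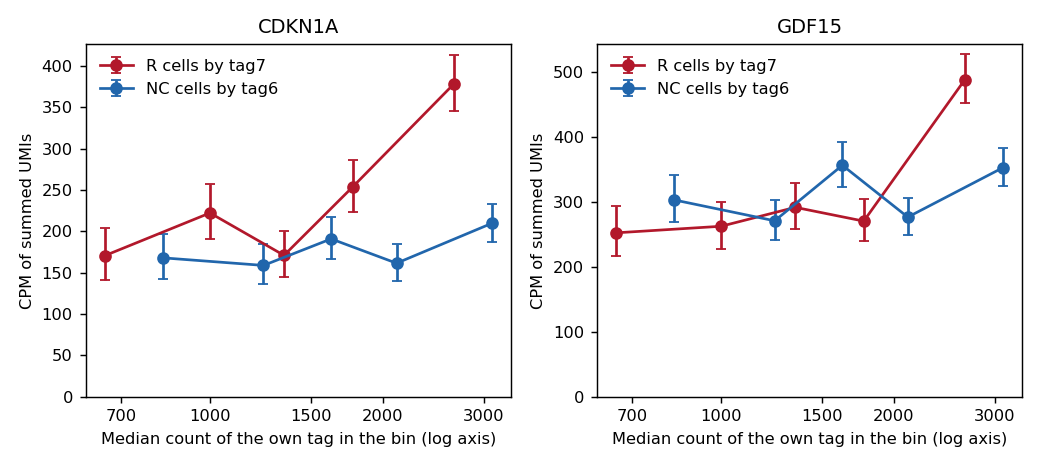
CPM of CDKN1A (left) and GDF15 (right) on the y axis in 5 bins of equal cell number, against the median count of the own tag in the bin (x axis, log scale), for R cells by tag7 and NC cells by tag6. Lines on points are exact 95% Poisson intervals; the last R bin reaches 378 and 488 CPM while the last NC bin is at 209.6 and 353 CPM.

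Depth moved with the tag, so the levels were also compared among cells of like depth. R cells were cut into 5 bins of gene UMIs, and in the 2 deepest bins CDKN1A was higher in R high than in R lower. In the fourth bin (7608 to 9117 UMIs) 39 R high cells had 455 CPM and 87 R lower cells 166 CPM, a ratio of 2.73 (2.13 to 3.51). In the deepest bin (9118 to 28420 UMIs) 77 R high and 50 R lower cells had 412 and 208 CPM, a ratio of 1.98 (1.61 to 2.47). In the 3 shallower bins R high had only 3, 13 and 24 cells, and the ratios of CDKN1A were 0.803 (0.0956 to 2.99), 0.912 (0.485 to 1.59) and 1.07 (0.723 to 1.54). A CDKN1A excess below 7608 UMIs was thus not detectable at this depth, and these bounds leave room for one. GDF15 had ratios of 2.04 (1.65 to 2.52) and 1.89 (1.57 to 2.31) in the 2 deepest bins and 1.54 (1.03 to 2.22) in the second. In NC the CDKN1A ratio was 0.970 (0.726 to 1.28) in the fourth bin and 1.08 (0.881 to 1.33) in the deepest. Averaged over bins with the weights of R high, the R ratios were 1.95 for CDKN1A and 1.82 for GDF15.

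For CDKN1A and GDF15, ordering R cells by depth alone gave smaller ratios than ordering them by tag. Both genes were singled out by their ratios under the tag split, which favours that split. A list of p53 targets, described below, had a median log2 ratio of 0.28 when split by gene UMIs, 0.18 by tag and 0.10 by tag per gene UMI. Genes called higher by the limits given below numbered 131, 82 and 56 in that order. With the 156 deepest R cells set against the rest, the ratio was 1.46 (1.30 to 1.63) for CDKN1A and 1.36 (1.23 to 1.51) for GDF15. With the 156 cells of highest tag7 per gene UMI set against the rest, it was 2.01 (1.78 to 2.26) and 1.60 (1.44 to 1.78). The part of depth in the remaining difference was not tested further.

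A small number of cells held much of the CDKN1A signal. The 4 R high cells with the highest CDKN1A share had 59, 44, 59 and 41 CDKN1A UMIs, 33.2% of the 612 in the group, and the top 5% (8 cells) held 47.7%. In R lower the top 5% (24 cells) held 31.3%, in NC high (10 cells) 29.0% and in NC lower (31 cells) 23.3%. With the top 5% of cells by CDKN1A share left out of each group, the ratio was 1.59 (1.37 to 1.85) in R, with 218 against 137 CPM, and 1.09 (0.936 to 1.26) in NC. With the top 10% left out, it was 1.51 (1.27 to 1.78) in R and 1.07 (0.908 to 1.26) in NC. CDKN1A thus remained higher in the other cells of R high, at a smaller ratio. Cells were left out by the measured gene itself, so these ratios describe how the excess was spread. GDF15 was less concentrated by this measure, since the ratio without its own top 5% of cells was 1.81 (1.60 to 2.05) in R and 1.27 (1.14 to 1.41) in NC.

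Thinning every cell to 5000 UMIs kept 155 R high and 382 R lower cells and 187 NC high and 512 NC lower cells, and left out 1, 95, 6 and 105 shallower ones. At least 1 CDKN1A UMI was found in 58.1% of R high cells (49.9 to 65.9%), 54.7% of R lower cells (49.6 to 59.8%), 54.0% of NC high cells and 55.5% of NC lower cells. The intervals of these shares overlapped, and the median was 1 UMI in each group. Free RNA held 723 CPM of CDKN1A, its part in these single UMIs was not tested, and the shares are not read as cells that express the gene. At least 3 UMIs were found in 17.4% of R high cells (11.8 to 24.3%), 8.38% of R lower cells (5.80 to 11.6%), 9.09% of NC high cells (5.39 to 14.2%) and 6.05% of NC lower cells (4.15 to 8.48%). At least 5 UMIs were found in 9, 8, 3 and 7 cells of these groups. Before thinning, 77.6% of R high and 60.0% of R lower cells had a CDKN1A UMI, and 70.5% of NC high and 64.5% of NC lower cells.

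For GDF15, R high was likewise highest at 5 or more UMIs, and the other groups stood in another order. At least 5 of 5000 UMIs were found in 16.1% of R high cells (10.7 to 22.9%), 4.97% of R lower cells (3.02 to 7.66%), 9.63% of NC high cells (5.81 to 14.8%) and 6.05% of NC lower cells (4.15 to 8.48%). At least 3 GDF15 UMIs were found in 27.7% of R high cells (20.9 to 35.5%), 15.4% of R lower cells (12.0 to 19.5%), 25.1% of NC high cells (19.1 to 32.0%) and 17.0% of NC lower cells (13.8 to 20.5%), so R high and NC high overlapped at this level. The genes were high together in part of the cells. All 9 R high cells with at least 5 CDKN1A UMIs also had at least 5 GDF15 UMIs, whereas 25 R high cells had at least 5 GDF15 UMIs. At 3 UMIs, 27 R high cells reached it for CDKN1A, 43 for GDF15 and 16 for both. In R lower both genes reached 5 UMIs in 3 of 8 cells with that much CDKN1A, in NC high in 2 of 3 and in NC lower in 7 of 7. Both genes reached at least 3 UMIs in 10.3% of R high (6.02 to 16.2%), 2.62% of R lower (1.26 to 4.76%), 5.35% of NC high (2.59 to 9.61%) and 3.13% of NC lower cells (1.80 to 5.03%). In IR cells this share was 18.0%.

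**Figure D3:**
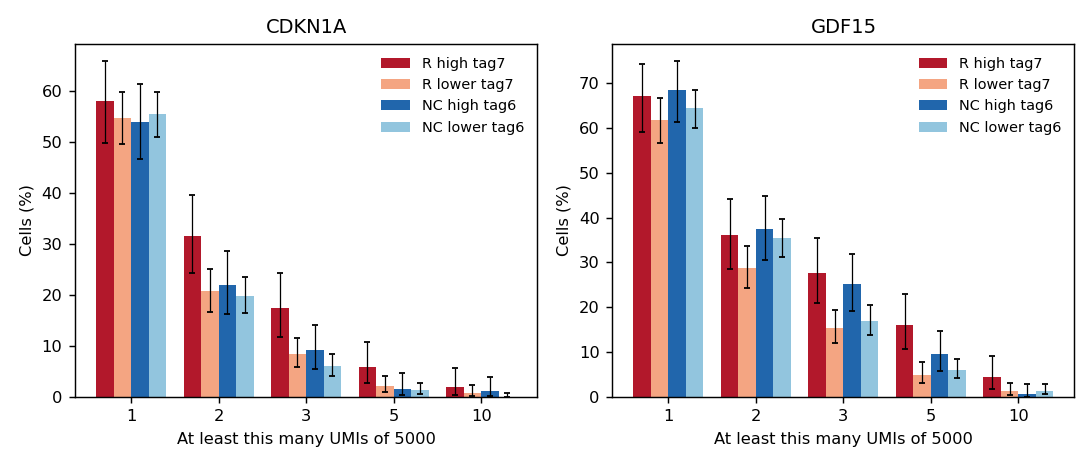
Share of cells (y axis, %) with at least 1, 2, 3, 5 or 10 UMIs (x axis) of CDKN1A (left) and GDF15 (right) after thinning every cell to 5000 UMIs, in R high, R lower, NC high and NC lower cells. Lines are Clopper-Pearson 95% intervals; the groups lie at 54.0 to 58.1% at 1 CDKN1A UMI, and R high is highest from 3 UMIs on (17.4% against 6.05 to 9.09%).

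Most of the R high cells richest in CDKN1A carried few transcripts of mitosis. The 8 R high cells with the highest CDKN1A share had 4357 CPM summed over the genes of the G2 and M phases (3985 to 4754), against 9867 CPM in the other 148 (9708 to 10029). MKI67, a proliferation marker, stood at 138 CPM (78.7 to 224) and 356 CPM (326 to 388) in these 8 and the other 148 cells. In the same order GDF15 stood at 1843 and 361 CPM, the p53 inhibitor MDM2 at 155 and 44.9 CPM, and the other p53 targets summed at 3298 and 1781 CPM. The first 5 of the 8 had 0 to 2 MKI67 UMIs and 13.9 to 31.4 G2 and M UMIs per 10000. The other 3 had 3 to 5 and 71.1 to 81.6, so the 8 cells were not uniform. The 24 richest cells of R lower had 5970 CPM of G2 and M genes, 875 CPM of GDF15 and 65.8 CPM of MDM2, against 8832, 231 and 34.4 CPM in the other 453. The 10 richest cells of NC high had 7202 CPM of G2 and M genes, 1029 CPM of GDF15 and 29.1 CPM of MDM2. That MDM2 level rests on 3 UMIs (6.01 to 85.1). The other 183 had 9817, 310 and 30.7 CPM. The 31 richest of NC lower had 6238, 1036.5 and 46.9 CPM, against 8864, 261 and 34.9 CPM in the other 586. GDF15 was thus also higher in the CDKN1A-rich cells of both NC groups. The other p53 targets summed to 2980 against 1521 CPM in NC high and 2265 against 1438 CPM in NC lower. All these cells were chosen by CDKN1A, so the values describe them and compare no groups.

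The CDKN1A ratio of R high over R lower was larger among cells with few G2 and M transcripts, where 1 cell weighed heavily. At 5000 UMIs a cell, cells were divided at 41 UMIs of the G2 and M list. Cells with few made up 42.6% of R high (34.7 to 50.8%), 50.5% of R lower (45.4 to 55.6%), 42.8% of NC high and 50.4% of NC lower, so high-tag cells of both populations held somewhat fewer of them. Among these, CDKN1A stood at 545 CPM in R high and 228 CPM in R lower, a ratio of 2.39 (1.95 to 2.93), and at 227.5 and 205 CPM in NC high and NC lower, a ratio of 1.11 (0.866 to 1.42). Of the 180 CDKN1A UMIs in R high cells with few, 41 came from 1 cell, and the ratio without that cell was not taken. Among cells with many, CDKN1A stood at 209 CPM in R high and 172 CPM in R lower. That ratio was 1.21 (0.929 to 1.57), which leaves room for an excess. In NC the levels were 168 and 145 CPM, a ratio of 1.16 (0.892 to 1.502). GDF15 behaved likewise, with ratios of 2.17 (1.82 to 2.58) among R cells with few such UMIs and 1.253 (0.993 to 1.58) among those with many. In NC the GDF15 ratios were 1.34 (1.12 to 1.59) and 0.961 (0.780 to 1.18).

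Genes were called different where the ratio of CPM was at least 1.5 in either direction with an interval excluding equality, among genes with at least 20 CPM in either group. Of 5406 genes in R, 82 (1.52%) were called higher and 76 (1.41%) lower, and of 5413 genes in NC 37 (0.684%) were called higher and 53 (0.979%) lower. At a ratio of 5 to 4, 175 (3.24%) and 171 (3.16%) were called higher and lower in R, and 141 (2.6%) and 155 (2.86%) in NC. The median log2 ratio over all genes was 0.01 in R and 0.00 in NC, where scaling every group to the same total keeps such a median near 0. Most called genes were scarce, since only 8 of the 82 and 6 of the 76 reached 50 CPM in either group. Leaving out the 1 cell with most UMIs of the gene, in the group where it was higher, ended 42 of the 82 calls and 25 of the 76. That cell held 25% or more of the UMIs in 2 of the 82 and 0 of the 76, with medians of 5.88% and 2.77%. The cell that most favours a call was removed, so calls near the limit of 1.5 end with a small shift. An ended call thus need not rest on 1 cell. In both R and NC, 1 gene was called higher, the calcium channel gene ORAI1 (1.22% of the R calls and 2.70% of the NC calls), and 2 were called lower, IPO8 and SUN1 (2.63% and 3.77%). These 3 are named because so few were shared. The interval of the quotient of ratios lay over 1 for 30 of the 82 and under 1 for 21 of the 76.

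**Figure D4:**
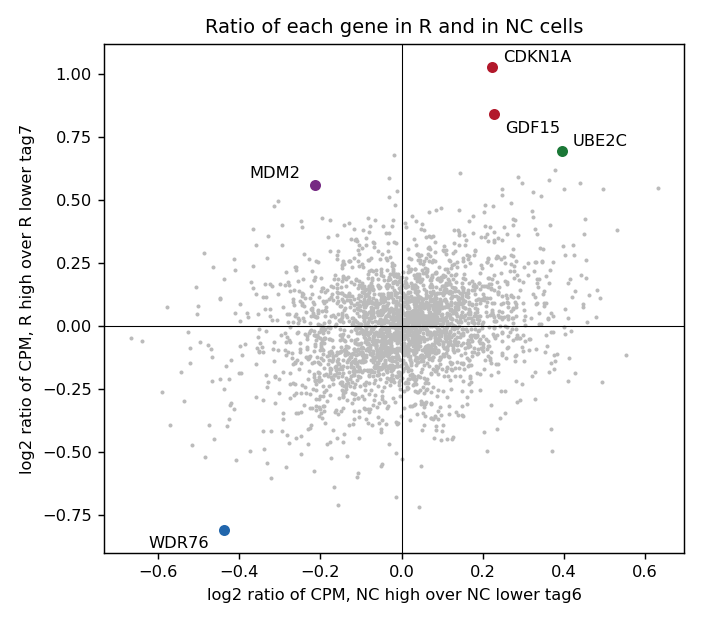
Log2 ratio of CPM of R high over R lower (y axis) against that of NC high over NC lower (x axis). Each grey point is 1 of 2926 genes with at least 50 CPM in any of the 4 groups. CDKN1A, GDF15, UBE2C, MDM2 and WDR76 are in colour. CDKN1A (1.03 against 0.22) and GDF15 (0.84 against 0.23) lie above the cloud, and UBE2C lies up in both.

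KRTAP2-3 shows how far 1 cell can carry a call. This hair keratin-associated gene, which is among the genes highest in IR cells, gave the largest called ratio, 2.91 (2.00 to 4.28), from 45.4 CPM in R high and 15.6 CPM in R lower. Of its 72 UMIs in R high, 47 came from 1 cell, and without that cell the ratio was 1.02 (0.602 to 1.68). The same cell was the one with the highest CDKN1A share, 59 CDKN1A and 16 GDF15 UMIs among 7750, with 2005 tag7 and 141 tag8 counts. A further R high cell, with 18682 UMIs and 8501 tag7 counts, also had 59 CDKN1A UMIs, and without that one the CDKN1A ratio was 1.87 (1.66 to 2.10).

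Few p53 targets were called. Of 46 listed genes 23 were measured in R, of which 3 were called higher and 0 lower, against 1.52% and 1.41% of all genes, and 18 of the 23 had a ratio over 1. CDKN1A and GDF15, which were singled out with these results known, are 2 of the 3 called, so only PHLDA3 is apart from that choice. The median log2 ratio was 0.18, beside 0.01 over all genes in R, and 0.01 for 22 measured genes in NC. PHLDA3, an inhibitor of AKT, was called higher at 34.1 against 20.3 CPM, a ratio of 1.67 (1.14 to 2.44), and had a ratio of 1.15 (0.804 to 1.62) in NC. MDM2, which marks p53 for degradation, had 52.97 and 35.9 CPM in R high and R lower, a ratio of 1.47 (1.10 to 1.97) that missed the limit. Its ratio in NC was 0.862 (0.623 to 1.18), and the quotient was 1.71 (1.13 to 2.59). Without CDKN1A and GDF15 the p53 list summed to 1905 CPM (1832 to 1981) in the highest tag7 bin and 1643 CPM (1548 to 1742) in the lowest, and in NC to 1613 and 1499 CPM in the highest and lowest tag6 bins.

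The genes highest in irradiated cells had ratios mostly a little over 1. The 50 genes with the highest ratio of IR over NC had a median log2 ratio of 0.14 in R, with 4 called higher and 1 called lower, against 1.52% and 1.41% of all genes, and 40 of 50 above a ratio of 1, and a median of 0.05 in NC, with 0 called in either direction at 1.5-fold and 2 higher and 1 lower at the limit of 5 to 4. The 4 were CDKN1A and GDF15, which were singled out with these results known, and KRTAP2-3 and ELF3, whose calls each ended without 1 cell. For ELF3 that cell held 21 of 122 UMIs, and the ratio without it was 1.254 (0.968 to 1.62). IFI6, an interferon-stimulated gene that is high in IR cells at 100.2 CPM, had 23.3 CPM in R high and 31.2 CPM in R lower, a ratio of 0.749 (0.499 to 1.10). CPA4, a carboxypeptidase at 83.9 CPM in IR, was called lower at 15.8 against 25.1 CPM, a ratio of 0.628 (0.384 to 0.995), and without 1 cell it was 0.659 (0.402 to 1.05) and no longer called. The cystatin gene CST3, of the maintenance panel of the study, had a ratio of 1.04 (0.922 to 1.17), and SNCG, of its budding panel, 1.23 (1.01 to 1.49). The 50 genes summed to 17597 CPM in R high, 15648 CPM in R lower and 24473 CPM in IR cells. Within R high they summed to 24635 CPM in the 8 cells richest in CDKN1A and 17041 CPM in the other 148, a list that itself holds CDKN1A and GDF15. Leaving out the cells with an IR-like tag8 count left the CDKN1A ratio at 2.11 (1.88 to 2.38) and that of GDF15 at 1.70 (1.53 to 1.89). Only cells with many tag7 counts could be left out in this way, so carry-over from IR cells was not tested evenly in R high and R lower.

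Genes of mitosis had ratios mostly a little over 1 in both populations. The list of G2 and M phase genes holds 57 names and 52 were measured in R, of which 1 was called higher and 0 lower, against 1.52% and 1.41% of all genes. At the limit of 5 to 4, 11 were higher, against 3.24% of all genes, and 42 had a ratio over 1, with a median log2 ratio of 0.12. In NC 2 of 53 were called higher, against 0.684%, 11 at that lower limit, against 2.6%, and the median was 0.15. UBE2C, the ubiquitin-conjugating enzyme of the anaphase-promoting complex, had 352.5 CPM in R high and 218 CPM in R lower, a ratio of 1.62 (1.45 to 1.81), and 346 and 264 CPM in NC high and NC lower, a ratio of 1.31 (1.19 to 1.45). The G2 and M phase genes KIF23 and CDCA3 had ratios of 1.46 (1.14 to 1.87) and 1.46 (1.08 to 1.98) in R, and 1.32 and 1.55 in NC. MKI67 had 339.9 and 305 CPM in R high and R lower, a ratio of 1.11 (1.001 to 1.24), and 1.18 (1.08 to 1.30) in NC.

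S phase genes had medians below 0 in both. Of 39 measured in R 2 were called lower and 0 higher, against 1.41% and 1.52% of all genes, with a median log2 ratio of -0.12, and of 40 in NC 1 was called lower, against 0.979%, with a median of -0.10. WDR76 had the lowest ratio of all genes at 50 CPM, with 33.4 CPM in R high and 58.5 CPM in R lower, 0.571 (0.413 to 0.779), and 0.738 in NC. MCM10, which starts replication forks, stood at 0.680 (0.501 to 0.911), and DTL, an adaptor of replication-coupled protein degradation, at 0.609 (0.380 to 0.946), both below 1 in NC as well, at 0.821 and 0.824.

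**Figure D5:**
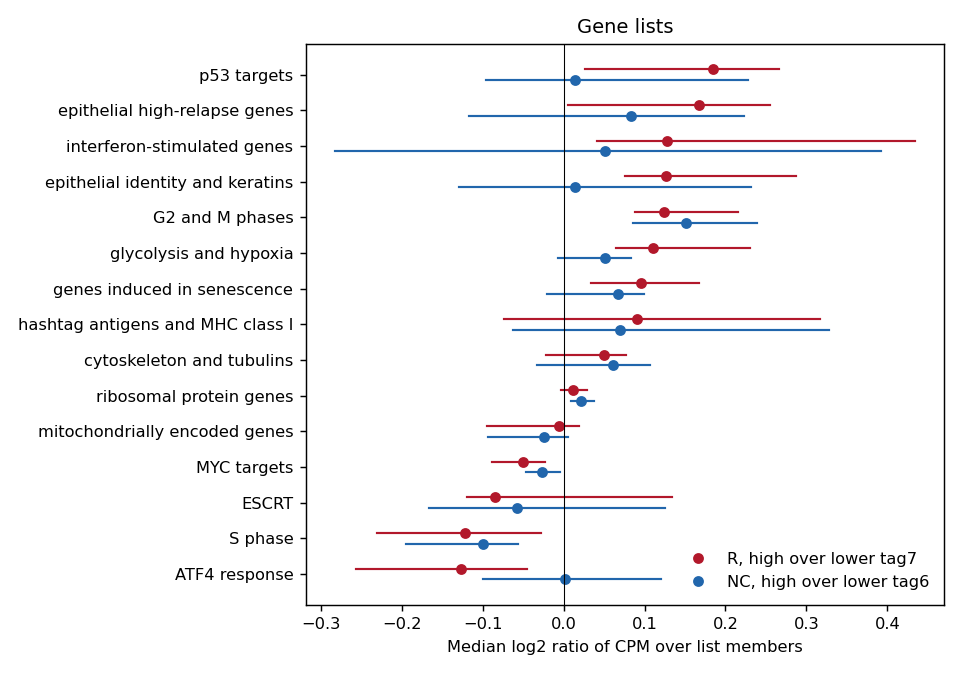
Median log2 ratio of CPM in 15 gene lists (rows), taken over members that were measured, for R high over R lower tag7 and NC high over NC lower tag6 on the x axis, with exact order-statistic 95% intervals over genes as lines. The p53 list lies at 0.18 in R and 0.01 in NC, and the mitotic list at 0.12 in R and 0.15 in NC.

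Transcripts of the proteins that the hashtag antibodies bind had ratios near 1. ATP1B3 had 187 and 196 CPM in R high and R lower, a ratio of 0.9502 (0.824 to 1.09), and B2M had 569 and 536 CPM, a ratio of 1.06 (0.979 to 1.15). In NC the ratios were 0.958 and 1.04. Over 10 measured genes of the hashtag antigens and MHC class I none was called in R, against 1.52% higher and 1.41% lower over all genes. Their median log2 ratio was 0.09, beside 0.07 in NC. HLA-B, an MHC class I heavy chain, had 260.4 and 209 CPM, a ratio of 1.245 (1.10 to 1.41), and TAPBP, which loads peptides onto it, had 51.1 and 39.1 CPM, a ratio of 1.31.

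Of the other genes at 50 CPM with ratios far from 1, those called higher in R high were of varied function. MSRB2, a mitochondrial methionine sulfoxide reductase, had 50.4 against 31.5 CPM, a ratio of 1.60 (1.18 to 2.17), and 0.988 in NC. GRN, the precursor of granulins, had a ratio of 1.51 (1.18 to 1.92), and ELF3, an epithelial transcription factor, 1.503 (1.18 to 1.91) with 0.979 in NC. SYCE1L and CCDC90B had ratios of 1.54 (1.15 to 2.06) and 1.52 (1.13 to 2.05). Without the 1 cell with most UMIs of the gene, GRN, SYCE1L and CCDC90B fell just below the limit. They then stood at 1.46 (1.14 to 1.86), 1.48 (1.10 to 1.99) and 1.47 (1.08 to 1.98), with intervals that still excluded equality. ELF3 fell to 1.254 (0.968 to 1.62), and the calls of MSRB2 and UBE2C held. The long non-coding RNA UCA1 and the ligand BMP4 stood at 1.495 (1.14 to 1.959) and 1.48 (1.14 to 1.94) and missed the limit. At the low end were PHF6, a chromatin protein, at 0.608 (0.438 to 0.831), AKIRIN1 at 0.625 (0.463 to 0.833), the lysosomal sorting receptor M6PR at 0.642 (0.481 to 0.848), the selenoprotein SELENOT at 0.658 (0.502 to 0.855) and MICU2, a regulator of mitochondrial calcium uptake, at 0.661 (0.485 to 0.890). Without 1 cell MICU2 stood at 0.678 (0.497 to 0.915) and narrowly missed the limit, and the calls of the other 4 held. Each of these rested on 53 to 232 UMIs a group. IDI1, of isoprenoid synthesis, WDR82, of a histone methyltransferase, and WAPL, which releases cohesin, stood at 0.668, 0.671 and 0.682.

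R high cells kept epithelial markers of the line. EPCAM had 424 and 388 CPM in R high and R lower, KRT8 1225 and 1161 CPM, KRT18 1375 and 1357 CPM, and KRT19 1476 and 1210 CPM, and of these KRT19 had the widest gap, 1.22 times (1.16 to 1.28). EPCAM, KRT8 and KRT18 are given as identity markers whatever their ratio, and CDH1, also set as a marker, is not given here. The epithelial list had a median log2 ratio of 0.13 over 15 measured genes, with 14 above 0 and the lowest at -0.41. Of the 15, 2 were called higher, against 1.52% of all genes, ELF3 and the carbonic anhydrase CA2 at 1.51 (1.07 to 2.12). Both calls ended without 1 cell, and CA2 then stood at 1.41 (0.993 to 1.99). No listed marker of erythroid, endothelial, immune or fibroblast cells reached 20 CPM. The lists of fibroblast, immune, endothelial and erythroid markers summed to 2.52, 7.57, 0 and 2.52 CPM in R high and 2.23, 5.09, 0 and 1.59 CPM in R lower, where a count of 0 allows up to 1.89 CPM in R high and 0.954 CPM in R lower.

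Other programs had small median ratios between R high and R lower, some with intervals over genes that left out equality. ATF4 target genes, the amino acid stress response, had a median log2 ratio of -0.13 (-0.26 to -0.05 over genes) in R, with 2 of 15 genes above a ratio of 1. Of the 15, 1 was called lower, against 1.41% of all genes, the serine synthesis enzyme PSPH at 0.533 (0.298 to 0.907). In NC the median was 0.00 over 18 genes, with 9 above a ratio of 1. ASNS, asparagine synthetase, had 58.0 and 69.3 CPM, a ratio of 0.837 (0.649 to 1.07). The metallothionein MT2A had 2737 and 2819 CPM, a ratio of 0.971 (0.936 to 1.01), and it had 5511 and 5509 CPM in NC high and NC lower. ID1, an inhibitor of differentiation, likewise had 534 and 524 CPM in R high and R lower, a ratio of 1.02 (0.937 to 1.11), and 307 and 285 CPM in NC high and NC lower. In both genes R high cells lay near R lower cells and far from NC cells.

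Secreted senescence factors had a median log2 ratio of 0.15 over 12 genes, with 1 called higher, GDF15 itself, and IGFBP6, a binding protein of insulin-like growth factors, at 1.34 (1.15 to 1.56). Published genes induced in senescence had 1 of 32 called higher, CDKN1A, and a median of 0.10. Over all genes in R, 1.52% were called higher and 1.41% lower. GDF15 and CDKN1A were singled out with these results known, so neither list holds a call apart from that choice. Nuclear proteins that decline in senescence had a median of 0.09 over 12 genes and none was called. A published chemotherapy-stress list had 0 of 17 called and a median of 0.09, with S100A2 at 1.46 (1.16 to 1.83). An epithelial high-relapse list had 0 of 25 called, 19 above a ratio of 1 and a median of 0.17 (0.005 to 0.25 over genes), beside 0.08 (-0.12 to 0.22) in NC. Medians were 0.01 for 81 ribosomal protein genes, -0.01 for 13 mitochondrially encoded genes, -0.05 for 194 MYC targets and -0.09 for 23 genes of the ESCRT membrane scission machinery. Interferon-stimulated genes had 0 of 9 called and a median of 0.13.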

How the data were processed

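The deposited values were whole-number UMI counts per gene and hashtag for each barcode, which the authors made with Cell Ranger 3.0.1 (file header) against GRCh38, and the submitters' processing notes also list mm10 and Seurat 2.3. Raw counts were used, and the unfiltered counts of the same library gave droplets without cells (200 to 500 gene UMIs). No column of another sample was present. Cells were kept and split as described above. No doublet caller was run: the 80% tag rule removes droplets in which no tag reaches that share. Droplets with a smaller share of another tag and doublets of 1 tag remain. UMIs were summed per group, scaled to CPM and compared as ratios, with exact conditional 95% intervals (Python 3.11.15, scipy 1.17.1), and shares have Clopper-Pearson intervals. With 1 sample a group no test was made, and intervals cover counting error only. The scripts were tested on simulated data. Alternatives included TMM factors (edgeR 4.0.16). Promoters came from RefSeq (GRCh38.p14), gene positions from GENCODE 44, matched for 33113 of 33538 features. The cells, gene lists and comparisons were chosen with earlier results of these data known, and 7 NC cells below the tag6 limit were left out. Genes named were CDKN1A, GDF15, the 10 highest and 10 lowest ratios in R at 50 CPM, and members of the fixed lists; others are said to be chosen later.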

Additional observations from a re-analysis of the deposited data

How the results depend on the processing

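The ratio of CDKN1A in R high over R lower stayed above 1 in 20 alternatives, from 1.46 to 4.99, and that of GDF15 in 21, from 1.36 to 5.28. No alternative turned either. The widest values rested on few cells: a mitochondrial limit of 5% left 11 R high and 20 R lower cells and gave 4.99 and 5.28 for CDKN1A and GDF15, and an own-tag share of 95% left 42 and 2 cells and gave 4.63 and 4.69. A high group from the median tag count gave 1.55 and 1.46, subtraction of the background profile 2.40 and 2.11, leaving out the top 5% of cells by gene UMIs 1.58 and 1.38, and a split by gene UMIs in place of the tag 1.46 and 1.36. CDKN1A moved to 1.76 with cells thinned to 5000 UMIs, and to 1.79, 1.59 and 1.51 without the top 2.5%, 5% and 10% of cells by its share. GDF15 moved to 1.60 at an own-tag share of 90%, 2.03 with the upper 10% of tag counts as the high group, 1.60 with the split by tag per gene UMI, and 1.56 without the top 5% of cells by CDKN1A share.

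The p53 list median of 0.18 moved to 2.21 at an own-tag share of 95%, 0.27 with the upper 10% and 0.28 with the split by gene UMIs, and fell to 0.04 with the high group from the median tag count and 0.10 with the split by tag per gene UMI. The 82 genes called higher and 76 called lower became 190 and 144 at 5 CPM, 8 and 6 at 50 CPM, 216 and 154 with no CPM minimum, 8 and 7 at a ratio of 2, 175 and 171 at a ratio of 5 to 4, and 131 and 50 with the split by gene UMIs. In addition 21 were called higher at an own-tag share of 95%, 194 lower at the mitochondrial limit of 5%, and 121 lower with the split by tag per gene UMI. Equal weight per cell, depth bins and background subtraction give no such counts. In NC, the GDF15 ratio of 1.17 turned to 0.948 with the high group from the median tag6 count, that of CDKN1A moved to 1.51 with the upper 10%, and that of GDF15 to 1.39 at an own-tag share of 95%. The cause of these shifts was not tested. Splits by gene UMIs or tag density, trimming by gene share and the exclusion of tag8-rich cells were chosen after seeing the data. No paired analysis was possible because the groups are cells of 1 library.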

Other observations

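Ratios did not gather on a chromosome: the median log2 ratio of R high over R lower lay between -0.05 and 0.04 on every chromosome tested. Among R high cells thinned to 5000 UMIs, GDF15 stood at 1015 CPM (852 to 1200) in the 27 cells with 3 or more CDKN1A UMIs. It stood at 454 CPM in the 63 with 1 or 2 and 215 CPM in the 65 with none. The same classes had 606, 271 and 205 CPM in R lower, 624, 376 and 244 CPM in NC high and 903, 288 and 233 CPM in NC lower. GDF15 thus rose with CDKN1A in NC cells as well.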
